A study of Homo sapiens with 18 samples.

Results

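Genes for the proteins of the cytosolic ribosome were followed across 6 groups of IMR90 ER:RAS cells. They were chosen by symbol, RPL or RPS followed by a number with an optional A, X or L ending, together with RPLP0, RPLP1, RPLP2 and RPSA, and needed at least 10 counts in at least 3 libraries. Of 28266 gene rows, 84 symbols matched and 82 passed the minimum, 50 of the large and 32 of the small subunit. The 2 symbols that did not pass, RPL3L and RPL10L, held 14 and 3 counts over all libraries. The member nearest to the minimum was RPL36A, which reached 10 counts in 9 libraries, and the next, RPL39L, had at least 43 counts in every library. All 82 members were among the 14341 genes tested. Of the 82, RPL7L1, RPL22L1, RPL26L1, RPL39L and RPS27L are near copies of other members, which leaves a core of 46 large and 31 small subunit genes.

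IMR90 cells are human lung fibroblasts, which the study lists among its cell lines. Here they carry a fusion of RAS to the oestrogen receptor, which 4-hydroxytamoxifen (4OHT) activates, so that the cells enter oncogene-induced senescence. Control cells had DMSO and senescent cells 100 nM 4OHT for 7 days, and both then had DMSO, IMP1088 (300 nM) or DDD86481 (1.5 µM) for 3 days, up to collection on day 10. Both compounds inhibit the N-myristoyltransferases (NMT inhibitors), enzymes that attach a fatty acid to the first glycine of some proteins. All groups carry the fusion gene, delivered by retrovirus, and each group had 3 libraries of poly(A) RNA. The labels number the replicates without saying what they are, and the study's legend for its expression data with these inhibitors gives n as independent experiments. The comparisons ask how the family differs between senescent and control cells and how each inhibitor moves it in either state. The doses of the inhibitors differ, so their values are given side by side.

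A ribosome is built from a small subunit, which holds the mRNA and reads its codons, and a large subunit, which joins the amino acids and lets the chain leave through an exit tunnel. Each subunit combines ribosomal RNA with single copies of most of its proteins, and cells make the proteins of both subunits in step. Messenger RNAs of these proteins typically begin with a C and a run of pyrimidines, the terminal oligopyrimidine (TOP) tract, through which mTOR signalling controls their translation. Introns of several of these genes encode small nucleolar RNAs (snoRNAs), which guide the modification of ribosomal RNA.

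The first bases of the transcripts are shown for members on which the results turn, from 20 bases before the annotated start to 10 bases from it, as given by RefSeq on GRCh38.p14. Capitals mark the C at the start and the pyrimidines that follow it without a break. The first 7 begin with such a run of at least 5 bases and the last 3, all near copies, do not.
RPS14: tcgctccgccccctcccactCTCTCTTTCC
RPS23: ctccttcctgcggtgcttctCTCTTTCgct
RPL22: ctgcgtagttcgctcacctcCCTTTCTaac
RPL22L1: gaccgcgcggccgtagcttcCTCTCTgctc
RPL39: gctcgttcttccgccagcttCCCTCCTCTT
RPL10: atgcgcaggcggaggagcgcCTCTTTCCCT
RPS27: gcaggatttccgctttcgctCCTTTCCggc
RPS27L: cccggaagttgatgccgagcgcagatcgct
RPL7L1: cgcgccggaagtgcggcgccgtagctagga
RPL26L1: caggcagtcttccaggggtcggcgaacgaa
The windows of RPS14 (chr5:150449730-150449759), RPS23 (chr5:82278345-82278374), RPL22 (chr1:6199586-6199615), RPL22L1 (chr3:170870186-170870215), RPL39 (chrX:119791621-119791650) and RPS27L (chr15:63157468-63157497) lie on the minus strand. Those of RPL10 (chrX:154398357-154398386), RPS27 (chr1:153990742-153990771), RPL7L1 (chr6:42879596-42879625) and RPL26L1 (chr5:172958709-172958738) lie on the plus strand. RPL10 has 3 annotated starts, of which one with a tract is shown, and RPL26L1 has 2, neither with one.

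The promoter table held 66 of the 82 members. At least 1 start of 47 of these, 71.2%, was a C followed by 4 or more pyrimidines, against 7.01% of 11038 other genes tested and 4.98% of 27239 other genes in the table. Allowing the C within 5 bases of the start gave 81.8% of members and 29.5% of other genes tested. The tract was found for 29 of 41 large and 18 of 25 small subunit genes. In windows from 250 bases before to 50 after the start, on both strands, CCGGAAG was present for 36.4% of members and 21.4% of other genes tested, TATAAA for 9.09% and 8.83%, and GCCATNTT for 16.7% and 12.02%. These are matches of letters and were not tested as sites.

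The members also shared short transcripts and snoRNAs. The median length of their canonical transcripts was 827 nt, against 3293 nt for 13670 other genes tested, and 56.1% against 6.6% were under 1000 nt. A snoRNA lay within 29 of the 82 members (35.4%) and within 337 of the other genes (2.5%), with 4 in RPL13A. Processed copies are common in this family: the annotation names 1599 pseudogenes for 78 of the 82, up to 133 for RPL21, so reads could be split between a gene and its copies and the count of any one member is uncertain to that extent.

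Library totals ran from 16143716 to 23189950 counts. The 8 fibroblast markers were all above 1 CPM (counts scaled to each library's size, per 1e6) in every group and summed to between 24195 and 34938 CPM in control and between 11344 and 16744 CPM in senescent libraries. The sum hides opposite changes in senescent against control DMSO cells. VIM was at a log2 fold change of 1.21, and the other fibroblast markers ranged from -0.67 for THY1 to -8.62 for DCN. The 5 epithelial markers summed to between 0.85 and 3.58 CPM in control and between 9.96 and 15.1 CPM in senescent libraries, with KRT5 and KRT14 at 0, and the 4 endothelial markers to between 1.17 and 3.97 and between 5.68 and 10.7 CPM. The 5 immune markers summed to at most 1.10 CPM, with CD3E at 0. The part of these differences in the results was not tested. One library stood apart. In control DMSO replicate 3 the median member was 0.72 higher on the log2 scale than in the other 2 libraries of its group. Other genes with transcripts under 1000 nt were 0.56 higher there and genes of 4000 nt or more 0.31 lower. This library is part of the senescence comparison and of both comparisons in control cells. Counts of members called in the main fit and called values of named members that use it are given with and without it. Other counts, such as those of groups that did not overlap and those by subunit, are given only with it.

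Measured as CPM per kb of coding length, core genes had a median level of 1212 over the 18 libraries. The medians of the subunits were close, 1221 for the large and 1208 for the small, with quartiles of 773 and 1530 and of 749 and 1544. The highest levels were those of RPL37A at 2977, RPL13A at 2930, RPLP1 at 2819 (an acidic protein of the stalk that recruits elongation factors), RPS18 at 2600 and RPL37 at 2340 CPM per kb. The first 3 of these differ among themselves by less than their spread in control DMSO cells, where their SDs were at least 1278 CPM per kb. The lowest core genes were RPL36A at 1.64, RPL17 at 10.0, RPS10 at 14.9, RPL39 at 146 and RPS3A at 244 CPM per kb. RPL17, RPS10 and RPL36A each share much of their exons with a readthrough transcript of the same strand that is listed as a gene, 96.9%, 84.0% and 43.8% of the transcript, and the readthrough genes averaged at most 0.1 counts. Other overlaps of at least 10% with a gene in the table, all on the opposite strand, were those of RPL10 with DNASE1L1 (50.7%), RPL38 with MGC16275, RPS28 with KANK3 (27.4%), RPS3A with SH3D19 (24.1%) and RPL32 with CAND2 (15.3%). The near copies ranged from 32.5 CPM per kb for RPL39L to 494 for RPS27L.

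**Figure D1:**
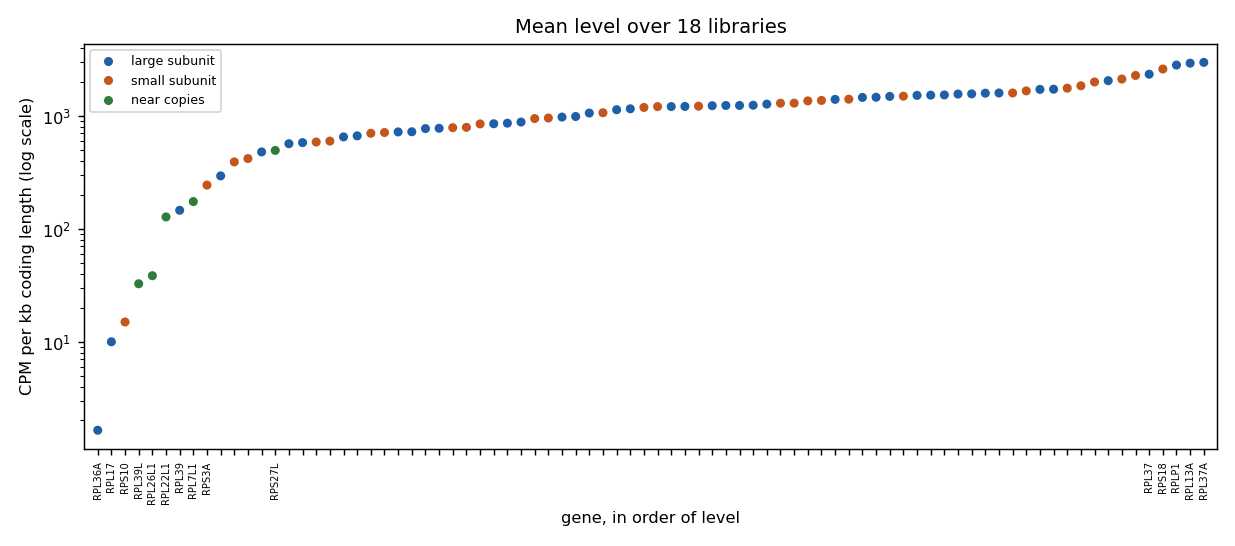
Mean level of each of the 82 genes over 18 libraries, in CPM per kb of coding length on a log axis, ordered from lowest to highest, coloured by subunit or as a near copy, and named on the axis for genes given in the text. The quartiles of the core are 771 and 1532 CPM per kb, and RPL36A, RPL17 and RPS10 lie far below them.

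The family took a smaller part of the counts in senescent than in control cells. Its share was 4.75, 5.63 and 8.17% in control DMSO libraries and 3.22, 3.17 and 3.59% in senescent DMSO libraries. With IMP1088 it was 4.28, 4.38 and 4.202% in senescent and 4.92, 5.98 and 5.83% in control cells. With DDD86481 it was 4.08, 4.13 and 3.81% in senescent and 4.86, 5.37 and 4.99% in control cells. Every senescent library treated with an inhibitor was thus above every senescent DMSO library and below every control library, and the control groups overlapped. On the log2 scale the mean share was 0.86 lower in senescent than in control DMSO cells, and 0.64 lower without control DMSO replicate 3. Relative to library sizes scaled by edgeR's TMM method, the log2 difference was -0.61. A share of counts also falls when other RNAs rise. In bulk RNA, such a rise, a lower share of cells that express a gene and less RNA of it per cell cannot be told apart.

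**Figure D2:**
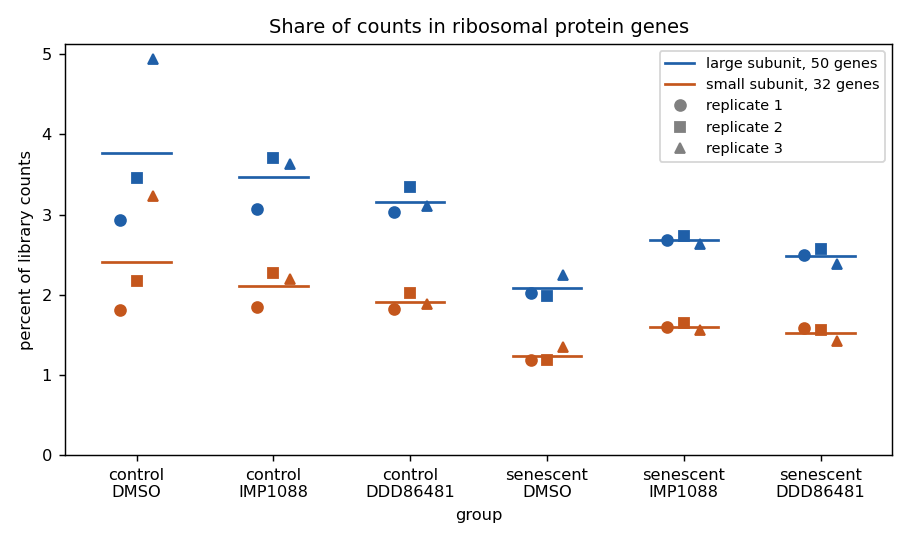
Percent of all counts of a library that fell on large (50 genes, blue) and small (32 genes, orange) subunit genes, by group, with points for replicates and lines for group means. Both subunits are lowest in senescent DMSO cells, and control DMSO replicate 3 lies above all other libraries.

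Large and small subunit genes moved together. Counts of core large subunit genes were 1.61, 1.58 and 1.53 times those of core small subunit genes in control DMSO cells and 1.70, 1.68 and 1.67 times in senescent DMSO cells. The ratio was therefore 0.10 higher on the log2 scale in senescent cells, or 0.08 without control DMSO replicate 3, and the groups did not overlap, but the difference of the medians of log2 CPM was -0.01. In control cells the ratio was 1.66, 1.63 and 1.65 with IMP1088 and 1.66, 1.65 and 1.65 with DDD86481, all above control DMSO cells. In senescent cells it was 1.69, 1.66 and 1.69 with IMP1088 and 1.57, 1.66 and 1.68 with DDD86481, and both overlapped senescent DMSO cells.

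Senescent cells had lower levels of most ribosomal protein mRNAs. By edgeR's quasi-likelihood test with Benjamini-Hochberg adjustment over all genes, 68 of the 82 fell and 1 rose, where 36% of all genes tested fell and 32.5% rose. The large subunit gave 41 falls and the small subunit 27, with medians of -0.58 and -0.67 log2 units. The family median was -0.62, whereas that of all genes was -0.05 and that of other genes under 1000 nt 0.04. In CPM, 50 of the 82 were lower in every senescent than in every control library, against 35.2% of all genes. Leaving out control DMSO replicate 3 gave 48 falls and 1 rise, with a median of -0.34. With offsets that remove the trend on transcript length from each library, 75 fell and 1 rose, with a median of -0.57. Shares of all genes called, here and below, are from the main fit of all libraries. Those of the other fits are not given, so counts of members under other settings have no such share beside them.

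The largest falls were those of RPL36A, RPL39L and RPS23. RPS23, a protein close to the site where codons are read, was at 283, 345 and 452 CPM in control and 143, 142 and 160 CPM in senescent DMSO cells. Its log2 fold change was -1.27 ± 0.13 (SE, adjusted p = 3.0e-08) and -1.08 without control DMSO replicate 3. RPL36A, at 0.645, 1.21 and 0.796 against 0.370, 0.0623 and 0.330 CPM, had a fold change of -1.76 ± 0.48 (adjusted p = 0.0028), from at most 30 counts in a library, and of -1.82 without control DMSO replicate 3. RPL39L, a near copy of RPL39 known from male germ cells, was at 5.16, 7.04 and 14.9 against 3.33, 3.55 and 3.63 CPM, and its fold change of -1.35 ± 0.31 (adjusted p = 6.5e-04) became -0.80 without control DMSO replicate 3. The one rise was that of RPL17, which lines the exit tunnel, from 3.22, 3.46 and 4.98 to 6.61, 7.03 and 8.79 CPM (0.96 ± 0.20, adjusted p = 2.5e-04), and its rise was 1.16 without control DMSO replicate 3. Its low counts and its overlap with a readthrough gene are given above, and their part in the rise was not tested.

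Genes often used as references for RT-qPCR fell as well. RPS14, the reference gene of this study's RT-qPCR in human cell lines, was at 845, 1044 and 1645 CPM in control and 681, 709 and 844 CPM in senescent DMSO cells. The highest senescent library was just below the lowest control library, and the fold change was -0.66 ± 0.17 (adjusted p = 0.0021), or -0.34 without control DMSO replicate 3 (adjusted p = 0.019). RPLP0, the base of the stalk, fell by 0.68 ± 0.12 on the log2 scale (adjusted p = 6.0e-05), RPL13A by 1.01 ± 0.18 (adjusted p = 4.1e-05) and RPS18 by 0.51 ± 0.14 (adjusted p = 0.0031). These falls were 0.46, 0.70 and 0.26 without control DMSO replicate 3, all still past the threshold (adjusted p = 6.3e-05, 7.2e-05 and 0.027). Scaled to the core family itself, RPS14 and RPS18 stood at log2 fold changes of 8.92e-05 and 0.14, so they fell about as much as the core or less.

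RPL5 and RPL11, which with 5S ribosomal RNA form the particle that binds MDM2, fell by unequal amounts. RPL5 was at 790, 934 and 1337 CPM in control and 559, 557 and 574 CPM in senescent DMSO cells, a fall of 0.86 ± 0.13 (adjusted p = 1.1e-05), or 0.61 without control DMSO replicate 3. RPL11 was at 808, 923 and 1325 against 725, 715 and 791 CPM, a fall of 0.45 ± 0.15 (adjusted p = 0.0094) that became 0.22 without control DMSO replicate 3, no longer past the threshold (adjusted p = 0.098), and stood at 0.19 when scaled to the core family. The counts for parts of the ribosome stand beside 68 falls among the 82 members and 36% among all genes, and nothing particular to a part is read from them. All 4 stalk genes (RPLP0, RPLP1, RPLP2 and RPL12) fell, as did 6 of 8 genes at the tunnel exit, 12 of 14 in the head of the small subunit and 10 of 13 mutated in Diamond-Blackfan anaemia, an inherited failure of red cell formation. The falls without control DMSO replicate 3 were 2 of 4, 5 of 8, 9 of 14 and 7 of 13, beside 48 of the 82.

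**Figure D3:**
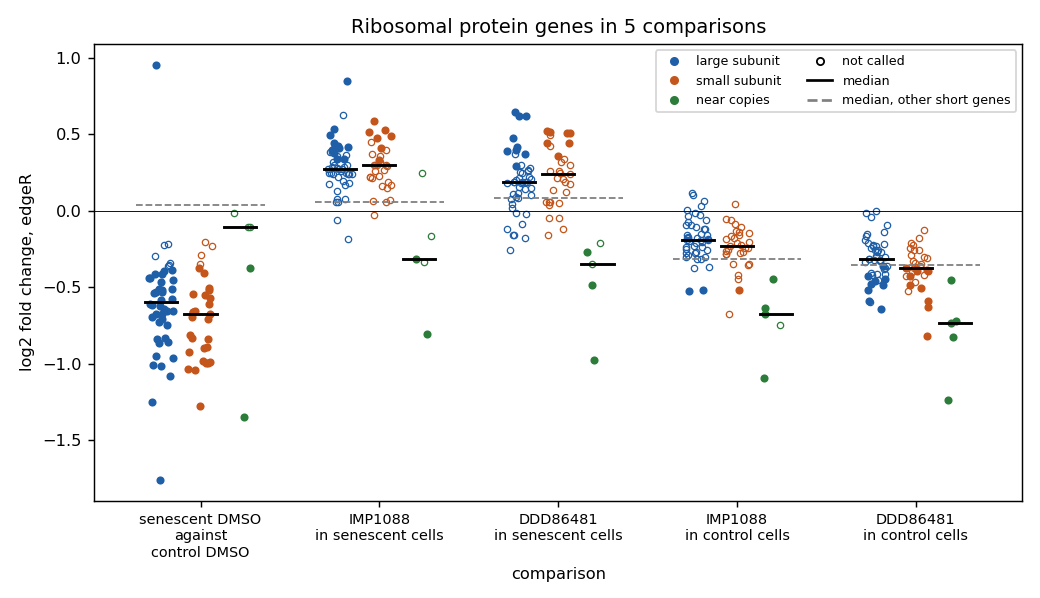
Log2 fold changes of core large (blue), core small (orange) and near-copy (green) genes in 5 comparisons. Filled points passed an adjusted p of 0.05 by edgeR, black lines are medians and dashed lines the median of other genes under 1000 nt. The core lies below 0 in senescence and above 0 with either inhibitor in senescent cells, whereas all 5 near copies lie below 0 with DDD86481 in both states.

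The proportion of RPL22 to its near copy, and of RPS27 to its own, differed without overlap between senescent and control DMSO cells and between DMSO and either inhibitor. RPL22, a large subunit protein that binds RNA outside the ribosome too, was at 121, 144 and 179 CPM in control DMSO cells and 58.8, 63.9 and 63.6 CPM in senescent DMSO cells, a fall of 1.25 ± 0.12 (adjusted p = 6.3e-09) that was 1.09 without control DMSO replicate 3. RPL22L1 was at 58.5, 70.2 and 111 against 63.0, 63.5 and 58.4 CPM, with overlapping groups, and its fall of 0.37 ± 0.16 (adjusted p = 0.045) became 0.06 without control DMSO replicate 3 (adjusted p = 0.62) and a rise of 0.29 when scaled to the core family. Its call was also lost without senescent DMSO replicate 1, 2 or 3 (adjusted p = 0.076, 0.073 and 0.13). RPL22 had 2.07, 2.05 and 1.62 times the counts of RPL22L1 in control DMSO cells and 0.93, 1.01 and 1.09 times in senescent DMSO cells. With IMP1088 the ratio was 4.46, 4.34 and 4.03 in control and 2.18, 2.25 and 2.27 in senescent cells. With DDD86481 it was 3.95, 4.85 and 4.42 in control and 3.07, 2.24 and 2.48 in senescent cells. In each state both inhibitors thus had a ratio above that with DMSO in every library.

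RPS27, a zinc finger protein of the small subunit, and RPS27L, a near copy induced by p53, gave a similar order. The ratio of RPS27 to RPS27L counts was 3.16, 2.84 and 3.15 in control and 1.69, 1.49 and 1.81 in senescent DMSO cells. It was 4.59, 4.65 and 4.86 with IMP1088 and 5.19, 4.05 and 4.10 with DDD86481 in control cells, and 2.97, 2.81 and 2.82 and 2.44, 2.27 and 2.55 in senescent cells. RPS27 fell by 0.90 ± 0.19 in senescence (adjusted p = 3.0e-04), and by 0.58 without control DMSO replicate 3 (adjusted p = 0.0016), whereas RPS27L was at -0.01 ± 0.19 (adjusted p = 0.95). RPL7L1, a factor of pre-ribosomal RNA processing, and RPL26L1 were at -0.10 and -0.11 (adjusted p = 0.35 and 0.57). Without control DMSO replicate 3, RPS27L, RPL7L1 and RPL26L1 were at 0.27, 0.03 and 0.20, none past the threshold (adjusted p = 0.16, 0.71 and 0.15).

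**Figure D4:**
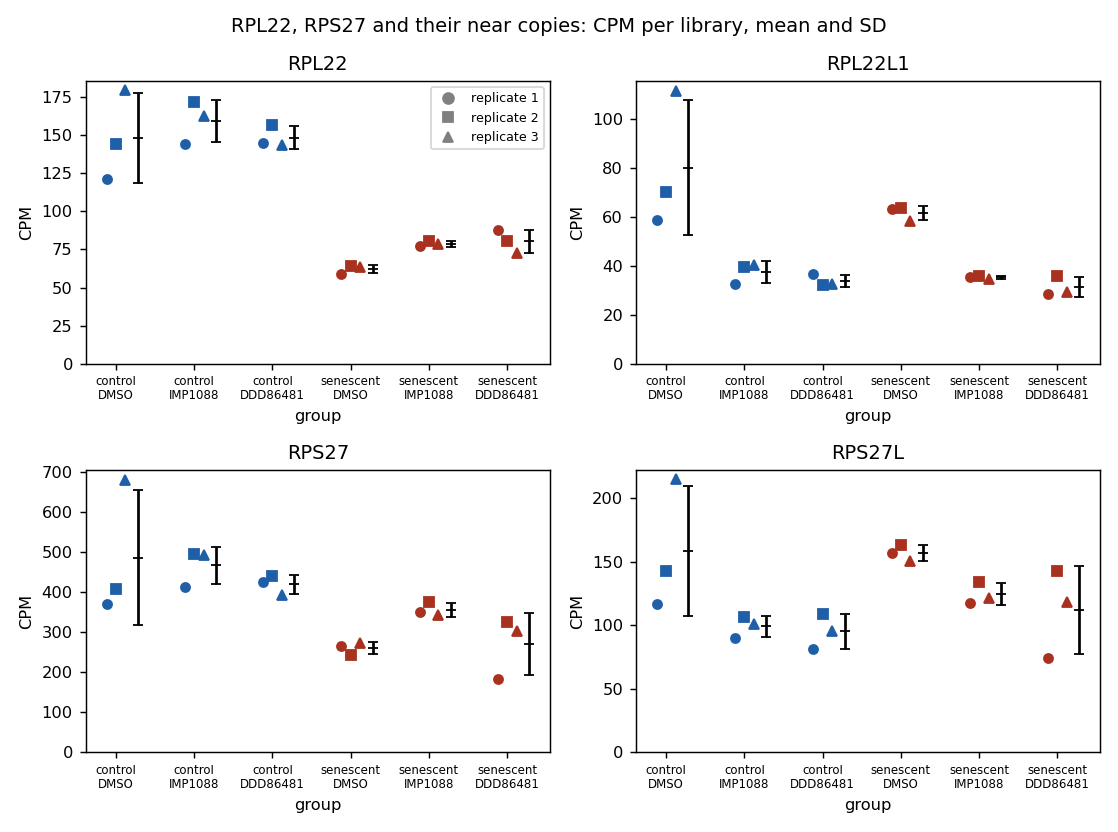
CPM of RPL22, RPL22L1, RPS27 and RPS27L in each library (control blue, senescent red, symbols for replicates), with the group mean and SD to the right of the points. RPL22 and RPS27 are lower in senescent than in control DMSO cells, while RPL22L1 and RPS27L are lower with either inhibitor than with DMSO on average in both states.

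IMP1088 raised some ribosomal protein mRNAs in senescent cells. In the fit of all libraries 19 of the 82 rose and 2 fell, where 20.6% of all genes rose and 23.9% fell, so that the share of rises was near that of all genes. A fold change above 0 was found for 75 of the 82. The family median was 0.27, against -0.04 for all genes and 0.06 for other genes under 1000 nt. The large subunit gave 12 rises and the small subunit 7, with medians of 0.27 and 0.30. In CPM, 61 of the 82 were higher in every IMP1088 than in every DMSO library, against 28.1% of all genes. The count of calls depended on which libraries set the spread: 65 rose and 3 fell when only the groups compared were fitted, and 47 rose and 2 fell without control DMSO replicate 3, which is no part of this comparison. Without senescent DMSO replicate 1 or 2 or senescent IMP1088 replicate 2, 10, 9 and 11 members were called. With length offsets 28 rose and 2 fell, with a median of 0.18. The 20.6% and 23.9% of all genes are from the fit of all libraries and are no background for these other counts.

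Large rises with IMP1088 were those of RPL10 and RPL13A. RPL10, one of the last proteins to join the large subunit, went from 407, 395 and 462 to 737, 787 and 757 CPM (0.85 ± 0.11, adjusted p = 3.9e-06), without overlap. RPL13A went from 1070, 1034 and 1236 to 1603, 1623 and 1611 CPM (0.53 ± 0.18, adjusted p = 0.018), a call lost without senescent DMSO replicate 1 or 2 (0.51 and 0.48, adjusted p = 0.057 and 0.068). The 2 falls were near copies: RPL22L1 went from 63.0, 63.5 and 58.4 to 35.3, 35.8 and 34.6 CPM (-0.81 ± 0.16, adjusted p = 4.8e-04) and RPL7L1 from 153, 153 and 148 to 124, 128 and 112 CPM (-0.32 ± 0.10, adjusted p = 0.012), the latter call being lost without senescent IMP1088 replicate 3 (-0.26, adjusted p = 0.069). RPL22 rose by 0.34 ± 0.11 (adjusted p = 0.021) and RPS18 by 0.41 ± 0.14 (adjusted p = 0.020). Both calls were lost without senescent DMSO replicate 1 (adjusted p = 0.078 and 0.068) or senescent IMP1088 replicate 2 (adjusted p = 0.060 and 0.069), and that of RPS18 also without senescent DMSO replicate 2 (adjusted p = 0.072). RPS14 was at 0.36 ± 0.17 (adjusted p = 0.097), RPLP0 at 0.27 ± 0.12 (adjusted p = 0.077), RPS27 at 0.45 ± 0.19 (adjusted p = 0.059) and RPS27L at -0.34 ± 0.19 (adjusted p = 0.17). RPL5 and RPL11 were at 0.25 and 0.06 (adjusted p = 0.14 and 0.76), RPL39L at 0.25 and RPL26L1 at -0.17 (adjusted p = 0.57 and 0.44).

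DDD86481 in senescent cells gave 16 rises and 3 falls, where 20.1% of all genes rose and 23.1% fell. The share of members that rose was thus near that of all genes. The family median was 0.19, with 0.19 for the large and 0.23 for the small subunit, against -0.04 for all genes and 0.08 for other genes under 1000 nt. In CPM, 26 members were higher in every treated than in every DMSO library, against 24% of all genes. When only the groups compared were fitted 31 rose and 3 fell, and without control DMSO replicate 3, 29 and 4. With length offsets 20 rose and 4 fell, with a median of 0.11. Without senescent DMSO replicate 1 or 2 or senescent DDD86481 replicate 1, 6 members were called each time. In senescent DDD86481 replicate 1, RPL13A was at 2180 CPM against 1576 and 1486 in the other libraries of its group. In the same library RPS27A was at 520 CPM against 329 and 288, and RPS27L at 74.7 against 143 and 118.

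RPL13A rose by 0.65 ± 0.18 on the log2 scale (adjusted p = 0.0052), and by 0.46 without senescent DDD86481 replicate 1 (adjusted p = 0.048). RPL10 went from 407, 395 and 462 to 587, 671 and 690 CPM (0.62 ± 0.11, adjusted p = 1.3e-04), and its value without that library was 0.69. RPL39, a small protein of the exit tunnel, went from 15.6, 14.1 and 15.2 to 27.6, 22.9 and 18.4 CPM (0.62 ± 0.19, adjusted p = 0.012), a call lost without that library (0.47, adjusted p = 0.078). The 3 falls were again near copies. RPL22L1 reached 28.6, 35.9 and 29.3 CPM (-0.98 ± 0.17, adjusted p = 7.6e-05). RPS27L fell by 0.49 ± 0.19 (adjusted p = 0.048), a call lost without any 1 of the 3 senescent DMSO replicates or senescent DDD86481 replicate 1 or 3, and a fall of 0.26 without the first of these DDD86481 replicates (adjusted p = 0.27). RPL7L1 fell by 0.27 ± 0.10 (adjusted p = 0.030), a call lost without any 1 senescent DMSO replicate or senescent DDD86481 replicate 2 or 3, at 0.23 to 0.28. RPL22 rose by 0.37 ± 0.11 (adjusted p = 0.013), and by 0.33 and 0.30 without senescent DMSO replicate 1 and senescent DDD86481 replicate 1, no longer past the threshold (adjusted p = 0.056 and 0.065). RPS14 was at 0.42 ± 0.17 (adjusted p = 0.053), RPLP0 at 0.15, RPS18 at 0.19, RPL5 at 0.08, RPL11 at -0.16 and RPS27 at 0.05, none past the threshold (adjusted p = 0.33, 0.28, 0.64, 0.41 and 0.85). RPL39L was at -0.35 and RPL26L1 at -0.21 (adjusted p = 0.44 and 0.33). Both comparisons in senescent cells share the senescent DMSO libraries.

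In control cells near copies made up most of the members that fell with IMP1088, and the counts of the family depended on single libraries. With IMP1088, 7 members, of which 4 were near copies, fell and 0 rose, where 17.4% of all genes fell and 16.3% rose, and 0 rose at an unadjusted p of 0.05 or by DESeq2. The median was -0.21, against -0.31 for other genes under 1000 nt, and 5 members were lower in every treated library, against 21.3% of all genes. Without control DMSO replicate 3 the median was 0.06, with 2 rises and 4 falls. Without control DMSO replicate 1, 50 were called, and without control IMP1088 replicate 1, 4. With length offsets 12 rose and 5 fell, with a median of 0.07. With DDD86481, 24 fell and 0 rose, where 18.7% of all genes fell and 17.8% rose, with 0 rising at an unadjusted p of 0.05 or by DESeq2. The median was -0.35, against -0.35 for other genes under 1000 nt, and 10 members were lower in every treated library, against 22% of all genes. Without control DMSO replicate 3 the median was -0.07 and 5 fell. Without control DMSO replicate 1, 70 were called, and without control DDD86481 replicates 1 and 3, 6 and 7. With length offsets 7 rose and 10 fell, with a median of -0.02.

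RPL22L1 fell most in control cells, from 58.5, 70.2 and 111 CPM to 32.4, 39.5 and 40.3 CPM with IMP1088 (-1.09 ± 0.16, adjusted p = 3.5e-05) and to 36.6, 32.3 and 32.5 CPM with DDD86481 (-1.24 ± 0.16, adjusted p = 9.9e-06). The falls were 0.78 and 0.93 without control DMSO replicate 3, both still past the threshold. RPS27L fell by 0.68 ± 0.19 and 0.73 ± 0.19 (adjusted p = 0.011 and 0.0061), RPL26L1 by 0.64 and 0.72 (adjusted p = 0.0056 and 0.0023) and RPL7L1 by 0.45 in both (adjusted p = 0.0014 and 0.0012). Without control DMSO replicate 3 the falls of RPL26L1 were 0.33 and 0.41 (adjusted p = 0.046 and 0.014) and those of RPL7L1 0.31 and 0.32 (adjusted p = 0.0058 and 0.0050). RPS27L without control DMSO replicate 3 was at -0.39 and -0.45 (adjusted p = 0.083 and 0.046), and its call with IMP1088 was also lost without control IMP1088 replicate 1 (adjusted p = 0.054). RPL39L was at -0.75 and -0.82 (adjusted p = 0.052 and 0.033), and at -0.19 and -0.27 without control DMSO replicate 3, and its call with DDD86481 was also lost without control DDD86481 replicate 1 or 3 (adjusted p = 0.11 and 0.10). RPL22 was at 0.11 and 0.00 (adjusted p = 0.492 and 0.996) and RPS27 at -0.06 and -0.21 (adjusted p = 0.842 and 0.395). RPS14 was at -0.27 and -0.37, RPLP0 at -0.18 and -0.30, RPL13A at -0.10 and -0.23, RPL5 at -0.07 and -0.19 and RPL11 at -0.23 and -0.36, none past the threshold. RPS18 was at -0.24 and fell by 0.39 with DDD86481 (adjusted p = 0.19 and 0.031), or by 0.15 without control DMSO replicate 3 (adjusted p = 0.30), a call also lost without control DDD86481 replicate 1 or 3 (adjusted p = 0.087 and 0.088).

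Interactions, in which the fold change of an inhibitor in control cells is subtracted from that in senescent cells, were above 0 for 81 of the 82 members with IMP1088 and 82 with DDD86481. For IMP1088 16 interactions were called above and 0 below 0, where 12.1% and 14.2% of all genes were, with a median of 0.50 against 0.42 for other genes under 1000 nt. For DDD86481 33 were called above and 0 below, where 14.4% and 15.9% of all genes were, with a median of 0.51 against 0.47. None was called below 0 at an unadjusted p of 0.05 or by DESeq2. The medians without control DMSO replicate 3 were 0.22 and 0.22, with 7 and 18 calls, and with length offsets 0.13 and 0.12, with 7 and 15. For IMP1088, 63, 31 and 7 were called without control DMSO replicates 1, 2 and 3, 7 without control IMP1088 replicate 1, 6 and 5 without senescent DMSO replicates 1 and 2, and 9, 7 and 10 without senescent IMP1088 replicates 1, 2 and 3. For DDD86481, 66 were called without control DMSO replicate 1, 15 and 16 without senescent DMSO replicates 1 and 2, and 21 without senescent DDD86481 replicate 1. Of the near copies 0 were called in either, with 1 in each at an unadjusted p of 0.05 and 0 by DESeq2, so their falls were not shown to differ between the states.

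**Figure D5:**
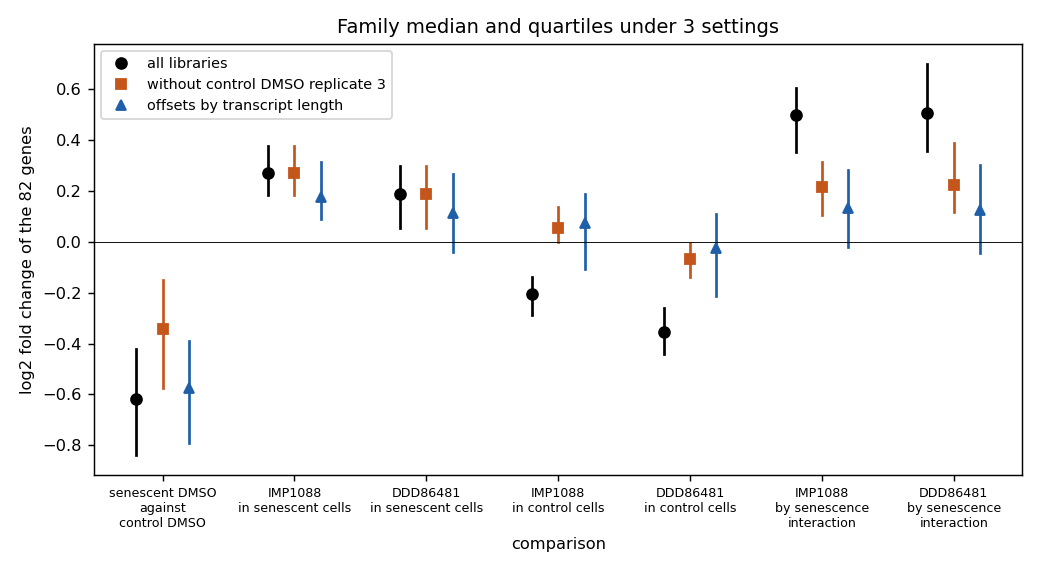
Median (symbol) and quartiles (line) of the log2 fold changes of the 82 genes in 7 comparisons, with all libraries, without control DMSO replicate 3 and with offsets by transcript length. The fall in senescence and the rise with either inhibitor in senescent cells keep their sign under all 3, whereas the medians of IMP1088 in control cells change sign and those of both interactions shrink from 0.50 and 0.51 to 0.22 or less.

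Outside the symbol rule, FAU, which yields a small subunit protein fused to a ubiquitin-like one, was at -0.21 ± 0.17 in senescence (adjusted p = 0.26), and at 0.09 without control DMSO replicate 3. RACK1, a signalling scaffold on the small subunit, fell by 0.27 ± 0.09 (adjusted p = 0.015), a call that was lost without control DMSO replicate 3. With IMP1088 in senescent cells FAU and RACK1 were at 0.31 and 0.19 (adjusted p = 0.14 and 0.11).

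Other lists are given as counts, beside the 32.5% of all genes that rose and 36% that fell in senescence. A list of 17 genes described as having TOP mRNAs holds mostly translation factors, but also HNRNPA1 (an RNA-binding protein), NAP1L1 (a histone chaperone), TPT1, BTF3 and NACA. Of these 17, 14 fell in senescence (median -0.48), or 12 without control DMSO replicate 3 (median -0.31). With IMP1088 and DDD86481 in senescent cells 10 and 8 of them rose and 1 and 1 fell (medians 0.35 and 0.26), where 20.6% and 20.1% of all genes rose. Of 77 mitochondrial ribosomal protein genes, 30 rose and 10 fell in senescence, with a median of 0.19, and 46 rose and 8 fell without control DMSO replicate 3. Of 50 factors of ribosome biogenesis 20 rose and 13 fell, and 23 and 14 without that library, with medians of 0.19 both times. Of 7 chaperones of ribosomal proteins 2 rose and 2 fell, and of 15 regulators of their synthesis 8 rose and 1 fell, or 3 and 1 and 7 and 1 without it. In senescent cells 24 and 22 biogenesis factors rose and 5 and 5 fell with IMP1088 and DDD86481, where 20.6% and 20.1% of all genes rose and 23.9% and 23.1% fell. In control cells 28 and 43 mitochondrial ribosomal protein genes fell with IMP1088 and DDD86481, where 17.4% and 18.7% of all genes did, and 7 and 15 without control DMSO replicate 3. Their medians were -0.31 and -0.34, against -0.31 and -0.35 for other genes under 1000 nt. Members that begin with a TOP tract had a median of -0.66 in senescence (47 genes) and those without one -0.53 (19 genes), or -0.38 and -0.30 without control DMSO replicate 3, while other genes tested had -0.10 (774 genes) and -0.02 (10264 genes). Some of the 19, such as RPL3, RPL4 and RPL19, have a tract within 5 bases of the annotated start. The 19 also include the near copies RPS27L, RPL7L1 and RPL26L1, and RPL17, which rose. The part of these genes in the difference was not tested.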

How the data were processed

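Poly(A) RNA of IMR90 ER:RAS cells was sequenced in 18 libraries. The deposited file, 1 table of the series, gives whole-number counts of reads that are not normalized, with 28266 gene rows. The study's methods describe directional libraries aligned to hg19, whereas the submitters' processing notes name hg38, DRAGEN, STAR 2.7.8a and DESeq2 1.32.0. Which of these made the table, its strand setting and its annotation are not given in the sources used here, so overlapping genes are uncertain. No column of per-sample values was left out. DDD86481 columns are named PCLX001.

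Genes kept by filterByExpr (14341) had TMM scaling and were tested in edgeR 4.0.16 (R 4.3.3) by 1 quasi-likelihood fit of 6 groups, with Benjamini-Hochberg adjustment over all genes and a threshold of 0.05; SEs derive from F. DESeq2 1.42.0, other scalings and filters, a replicate block, left-out libraries and (chosen after seeing the data) lowess offsets by transcript length, span 0.5, were alternatives. Scripts were tested on simulated data. Transcript and coding lengths, overlaps, snoRNAs and pseudogenes came from GENCODE on GRCh37; starts and coordinates from RefSeq on GRCh38.p14. The prior count of log2 CPM was 2.

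Named were, per comparison, the 3 largest rises and 3 largest falls among genes called and with groups that did not overlap; for interactions those called; the near copies; RPS14, RPLP0, RPL13A, RPS18, RPL5, RPL11, RPL22 and RPS27; the 5 highest and 5 lowest core genes per coding length; and FAU and RACK1. Some genes that this rule names are not reported here. The library named for RPL13A, RPS27A and RPS27L was chosen after its values were seen. Members and lists were chosen with earlier results of these data known. Same-numbered libraries deviated together in all 3 pairs of IMP1088 against DMSO in control cells (r = 0.394, 0.123 and 0.231), so those numbers were taken to pair. Elsewhere at least 1 pair was under 0.1. The main fit did not use the pairing. For IMP1088 in control cells it called 7 members, and the fit with a replicate block called 9, all falls. Counting intervals are small beside the replicate spread at these depths, and low members such as RPL36A are limited by counts. Replicates of a group differed by a chi-square of 5.26 to 104 per gene, so none was taken for a repeated library.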

Additional observations from a re-analysis of the deposited data

Results flagged for a closer look

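Some members differed between states in the response to an inhibitor, by the interaction term of edgeR's fit (effect in senescent minus effect in control cells, log2 scale). For IMP1088 these were RPL39 at 1.02, RPS21 at 0.83 and RPS18 at 0.65 (adjusted p = 0.0079, 0.024 and 0.019). For DDD86481 they were RPL39 at 1.21, RPS10 at 1.08, RPS27A at 1.02, RPL13A at 0.88, RPS14 at 0.80 and RPS18 at 0.59 (adjusted p = 0.0022, 0.042, 0.015, 0.012, 0.019 and 0.029). RPL39 was at 22.1, 28.6 and 44.4 CPM in control DMSO cells, where the highest library is replicate 3, and without that library the values of RPL39 were 0.70 and 0.89 (adjusted p = 0.012 and 0.0019). RPS10 was at 6.45, 8.13 and 17.96 CPM there and its value without replicate 3 was 0.52 (adjusted p = 0.15). For IMP1088 the values of RPS21 and RPS18 without it were 0.46 and 0.41 (adjusted p = 0.051 and 0.033). For DDD86481 those of RPS27A, RPL13A, RPS14 and RPS18 were 0.67, 0.57, 0.48 and 0.34 (adjusted p = 0.039, 0.023, 0.042 and 0.071). Other single libraries also ended calls. For IMP1088 that of RPS21 was lost without control IMP1088 replicate 1, senescent DMSO replicate 1 or 2 or senescent IMP1088 replicate 2 (adjusted p = 0.052 to 0.061). For DDD86481 that of RPS10 was lost without each of 6 other libraries (adjusted p = 0.059 to 0.13), that of RPS18 without senescent DMSO replicate 1 or 2 or senescent DDD86481 replicate 2 (adjusted p = 0.066 to 0.070), and those of RPS27A and RPS14 without senescent DDD86481 replicate 1 (0.72 and 0.64, adjusted p = 0.060 and 0.062), the latter also without senescent DMSO replicate 1 (0.74, adjusted p = 0.050).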

How the results depend on the processing

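The fall of the family in senescence and its rise with either inhibitor in senescent cells had medians of 1 sign under every alternative except scaling to the core family, which sets the core near 0. Scaling moved the median in senescence from -0.62 to -0.78 with upper quartiles and to -0.87 with library totals. Scaled to the family, 35 members were called in senescence, 10 with IMP1088 in senescent cells, 3 and 3 with IMP1088 and DDD86481 in control cells, and 1 and 1 in the interactions. For IMP1088 in senescent cells library totals gave 39 calls, no filter 34 and only the groups compared 68, and for DDD86481 only the groups compared gave 34. In control cells IMP1088 gave 16 calls with no filter, 2 with only the groups compared and 17 with length offsets, and DDD86481 gave 44 with upper quartiles, 50 with no filter and 5 with only the groups compared. The IMP1088 interaction gave 25 with upper quartiles, 26 with library totals, 47 with no filter and 7 with length offsets, and the DDD86481 interaction 15 with length offsets. Leaving out 1 library gave 49 to 79 calls in senescence, 9 to 49 and 6 to 33 with IMP1088 and DDD86481 in senescent cells, 4 to 50 and 5 to 70 in control cells and 5 to 63 and 15 to 66 in the interactions. With a replicate block the calls were 71, 25, 20, 9, 24, 21 and 35, each within 1.5 times the count without it. The log2 ratio of large to small subunit genes was -0.0115 in senescence, -0.10 with DDD86481 in senescent cells and 0.0325 with IMP1088 in control cells by the median of log2 CPM, and -0.10 with DDD86481 in senescent cells without the 5 most abundant genes of each subunit. The log2 share with IMP1088 in senescent cells was 0.29 on TMM effective library sizes. Scaled to the family, senescence turned to 0.29 for RPL22L1, 0.52 for RPL7L1, 0.54 for RPL26L1, 0.65 for RPS27L, 8.92e-05 for RPS14, 0.14 for RPS18 and 0.19 for RPL11. With length offsets RPS27 turned to 0.42 with IMP1088 and RPS18 to 0.0562 with DDD86481 in control cells. Where no construction of the alternative shows it, the cause was not tested. Depth limits RPL36A, with at most 30 counts.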
